A study of Mus musculus with 59 samples.

Results

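Axon guidance ligands and receptors are the proteins by which growing axons and migrating neurons read attractive and repulsive signals. Semaphorins signal through plexins, and most of the secreted class 3 semaphorins need a neuropilin beside the plexin to be bound. Ephrins, tethered to the membrane, bind Eph receptor tyrosine kinases and can signal in both directions, slits repel axons through Robo receptors, and netrins attract through Dcc or repel through Unc5 receptors. In the developing telencephalon these systems steer cortical, callosal and hippocampal axons, place interneurons and later shape synapses. The genes described here are all those whose single symbol names a semaphorin of classes 3 to 7, a plexin, a neuropilin, an ephrin, an Eph receptor, Slit1 to Slit3, Robo1 to Robo4, a netrin, an Unc5 receptor or Dcc, each read by its brightest probe set. The rule gave 73 genes of 18194 with 1 symbol: 7 class 3 semaphorins, 13 membrane semaphorins, 11 plexins and neuropilins, 8 ephrins, 13 Eph receptors, 7 slits and Robos, 12 genes of the netrin group and 2 that share only the symbol. Those 2 are Unc50, a Golgi protein gene, and Plxna4os1, a non-coding transcript. The netrin group also counts Unc5cl, which was placed there by its symbol, and whether it is a netrin receptor was not checked.

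The series measured RNA of C57BL/6 mouse brain on 59 Affymetrix Mouse 430 2.0 arrays in 19 groups. Pregnant females were given 1 oral dose a day from E12.5 to E14.5: 300 mg/kg valproic acid (VPA), which is prescribed against epilepsy and inhibits histone deacetylases, 300 mg/kg valpromide (VPM), its amide, or 0.5% methylcellulose (MC), the vehicle. Embryonic groups of 3 arrays each, VPA, VPM and MC, came from E14.5 telencephalon 3 h after the last dose, from E18.5 hippocampus and from E18.5 forebrain. Male offspring aged 12 to 13 weeks gave adult hippocampus and adult cortex in 4 groups of 3 arrays per tissue: VPA and MC offspring given a running wheel after weaning (VPA+RW, MC+RW) and VPA and MC offspring without one. A separate set from male offspring at P84 held hippocampus of VPA and MC offspring, with 4 arrays per group. No offspring group received VPM in the adult sets, all dams were handled and dosed, and no undosed group was compared here. Replicates are labelled biological without naming litters or pooled animals, so p-values measure the spread between these samples.

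Signals are linear probe set intensities, with each array brought to the same trimmed mean, 500. A gene was tested where its signal reached 100 in at least 3 arrays of a set (4 at P84), and 4 genes (Epha1, Plxna4os1, Robo2 and Sema3b) were never tested, with their highest group means at 90.1, 42.5, 97.9 and 78.5. The filter was passed by 58 of the 73 genes in E14.5 telencephalon, 64 in E18.5 hippocampus, 60 in E18.5 forebrain, 65 in adult hippocampus, 65 in adult cortex and 63 at P84. "Rose", "fell" and "changed" mean a limma adjusted p under 0.05 over all genes tested, log2 changes are on the scale of the signal with values under 32 set to 32, and intervals in brackets are 95%. Signals of different probe sets are not set against each other, because probes differ in brightness. The arrays carry bulk tissue, in which fewer cells of a type and less RNA per cell cannot be told apart.

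The tissues were checked against marker genes. The summed hippocampal markers lay at 11431 to 13312 in adult MC hippocampus, against 3466 to 3682 in adult MC cortex, and at 12764 to 15114 in E18.5 MC hippocampus, against 9509 to 10590 in E18.5 MC forebrain. Telencephalic markers were present in every group. Of 7 markers of thalamus and hindbrain, En1 and Hoxb5 stood at or under the floor in all MC groups, while En2 and Hoxb4 lay above it in the adult MC groups. The list summed to 427 to 540 in adult MC cortex and to 676 to 1012 in E18.5 MC hippocampus. Choroid plexus markers, whose tissue is easily caught in a brain dissection, did not follow the labels evenly: they summed to 20229 in 1 VPM array at E14.5 (replicate 3), against at most 346 in the other VPM arrays, 319 in VPA and 298 in MC. In E18.5 hippocampus they summed to 22359 to 26725 with VPA, 1701 to 29352 with MC and 1102 to 26898.5 with VPM. The highest adult sums were 19274 in a P84 MC array, 17798 in a P84 VPA array and 11034 in a VPA cortex array. The female transcript Xist exceeded 1000 in 2 VPA, 2 VPM and 1 MC array at E14.5, in 2 VPA, 1 VPM and 0 MC arrays of E18.5 hippocampus, and in 1 VPA, 1 VPM and 2 MC arrays of E18.5 forebrain. Of the members, Efnb1, Plxna3 and Plxnb3 are X-linked.

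The promoters of 3 members that moved at E14.5 are shown. Ephb3, an Eph receptor gene, had the largest rise with VPA, Nrp1, the neuropilin that binds Sema3a, the largest fall, and Efna5, a ligand of Eph receptors, rose. Each window runs 5′ to 3′ on the gene's own strand from 250 bases before to 50 bases after a RefSeq start (GRCm38.p6), with the GC box, GGGCGG or its reverse complement CCGCCC, in capitals.
Ephb3, chr16:21204545-21204844, plus strand: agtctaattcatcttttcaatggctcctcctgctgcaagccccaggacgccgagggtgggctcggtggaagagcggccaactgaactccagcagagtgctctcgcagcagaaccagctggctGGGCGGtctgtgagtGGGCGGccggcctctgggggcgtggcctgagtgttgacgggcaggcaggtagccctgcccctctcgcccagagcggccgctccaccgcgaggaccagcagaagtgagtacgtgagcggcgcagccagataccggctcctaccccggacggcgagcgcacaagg
Efna5, chr17:62881268-62881567, minus strand: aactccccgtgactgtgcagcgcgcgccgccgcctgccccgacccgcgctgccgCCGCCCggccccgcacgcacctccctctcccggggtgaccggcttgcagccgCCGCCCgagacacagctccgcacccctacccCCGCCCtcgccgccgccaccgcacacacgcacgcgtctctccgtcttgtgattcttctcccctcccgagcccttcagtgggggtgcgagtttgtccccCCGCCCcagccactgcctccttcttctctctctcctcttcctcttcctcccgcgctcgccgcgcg
Nrp1, chr8:128358823-128359122, plus strand: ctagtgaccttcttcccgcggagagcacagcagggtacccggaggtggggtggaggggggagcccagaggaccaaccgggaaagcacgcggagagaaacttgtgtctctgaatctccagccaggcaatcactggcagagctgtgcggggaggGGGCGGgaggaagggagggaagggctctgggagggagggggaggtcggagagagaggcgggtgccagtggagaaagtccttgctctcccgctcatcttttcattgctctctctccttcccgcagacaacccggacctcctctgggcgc

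The Ephb3 window holds 2 GC boxes and 23 CpG dinucleotides, the Efna5 window 4 and 38, and the Nrp1 window 1 and 14. The window of Sema3a, a class 3 semaphorin gene that fell, is not printed, because the only one available lies at an internal start. It holds 0 GC boxes and 2 CpG dinucleotides, which cannot stand for the promoter at the start of the gene. A GC box was found in 56 of 78 promoter windows of 62 members (71.8%), against 11714 of 32851 RefSeq windows of 27025 genes (35.7%). Those windows were not limited to the 18194 genes read here or to tested genes. Their median count of CpG dinucleotides was 7, lower than that of the member windows. Whether the shares differ among windows of like CpG content was not tested. Among members that rose with VPA at E14.5, 9 of 11 windows (81.8%) had a GC box, and among those that fell, 13 of 20 (65%). A match of 6 letters is a description of the sequence and not of binding.

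In the E14.5 telencephalon, 3 h after the last dose of VPA, 30 of 58 tested guidance genes changed, 10 upward and 20 downward. Of 8 ephrins 5 rose, Efna3 and Efna5 among them. Of the tested class 3 semaphorins 2 of 3 fell, as did the neuropilin Nrp1. Of 7 slits and Robos 4 were tested, and 0 passed. The 30 genes are 51.7% of those tested, against 53.8% of all 11068 genes tested in this comparison (27% higher and 26.8% lower), so the share of members that changed was close to that of all genes. The median log2 change was -0.0087 over the members and -0.0030 over all genes, and the median size of the change was 0.32, against 0.28. Groups did not overlap for 33 members, against 60.2% of all genes. Only Ephb3 and Nrp1 changed 2-fold or more, and 15 of the 30 changed by under 1.5-fold.

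**Figure D1:**
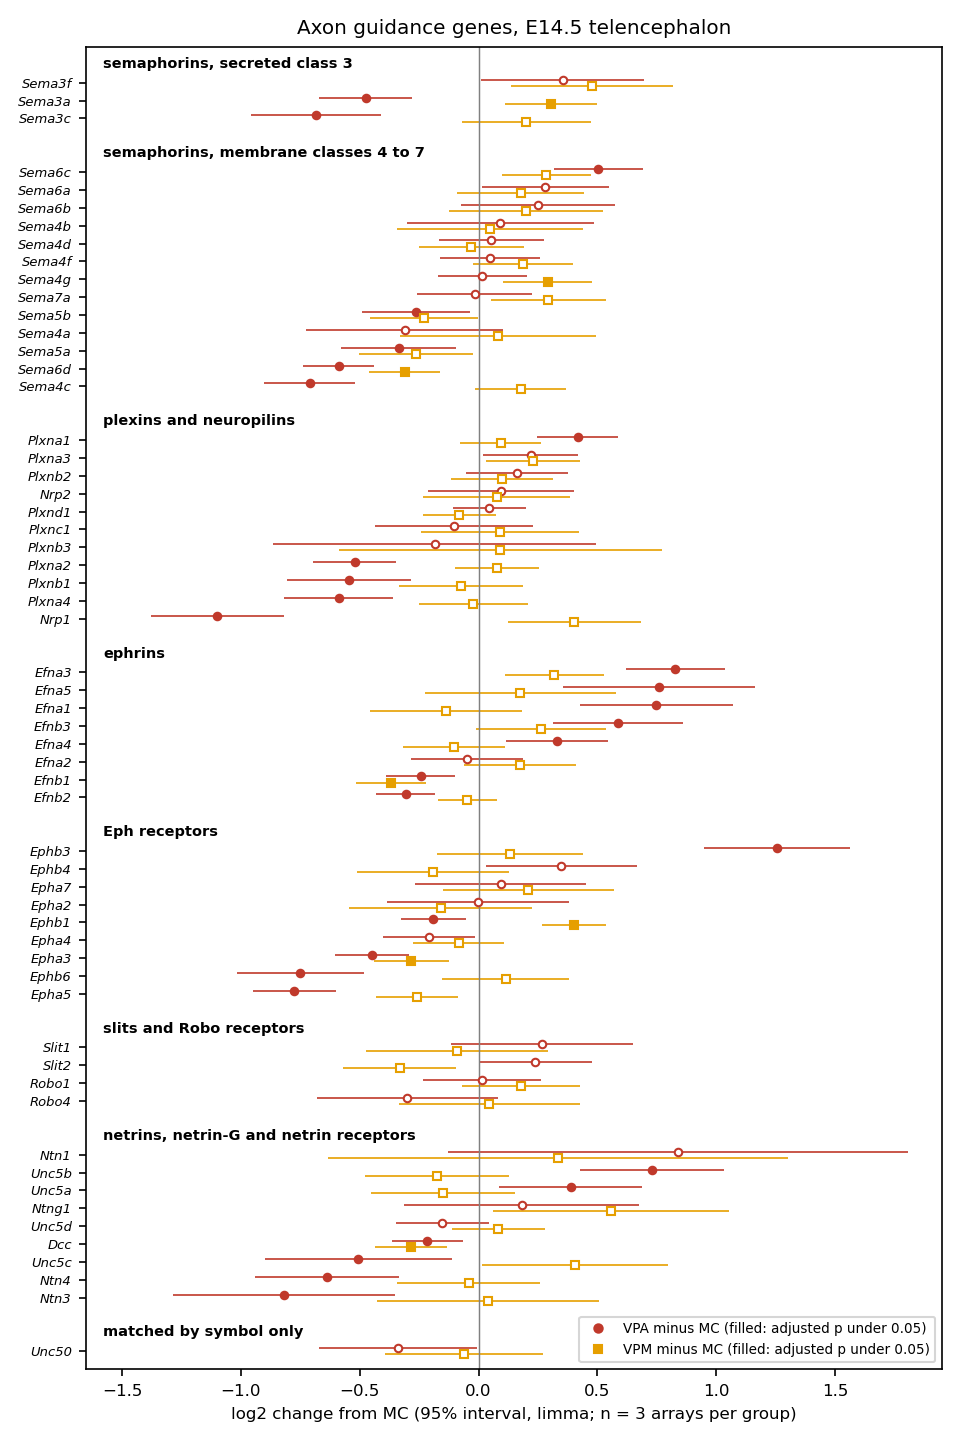
Log2 change of the 58 tested members in E14.5 telencephalon, grouped by role, with its 95% interval; red circles show VPA minus MC and orange squares VPM minus MC, filled where the adjusted p was under 0.05. The changes with VPA run from -1.10 for Nrp1 to 1.26 for Ephb3, and those called with VPM stay within 0.40 of 0.

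Of the 8 ephrins, 5 rose and 2 fell, with a median change of 0.46. Efna3, a ligand linked to the membrane by a lipid anchor as all A-type ephrins are, read 1423, 1199 and 1299 in VPA telencephalon, against 654, 721 and 840 in MC, and the log2 change was 0.83 [0.62, 1.04] (limma adjusted p = 2.31e-05). All 3 VPA arrays lay above all MC arrays. Efna5, which guides topographic maps by repulsion, gave 541, 417 and 583 with VPA, against 370, 252 and 291 with MC (0.76 [0.36, 1.16], adjusted p = 0.0044). The groups did not overlap, but the mean over the 2 Efna5 probe sets gave 0.29 with an adjusted p of 0.082. Efna1 rose by 0.75 (adjusted p = 0.00113) at low signals of 190 to 207 with VPA, against 111 to 128 with MC, and Efna4 by 0.33 (adjusted p = 0.0141), a call lost when either of 2 arrays was left out. Efnb3, a transmembrane ephrin that stops corticospinal axons at the midline, read 2167, 2185 and 2149 with VPA, against 1534, 1214 and 1611 with MC (0.59 [0.31, 0.86], adjusted p = 0.00192). The other transmembrane ephrins went the other way: Efnb2 fell by 0.31, with 4699, 4433 and 4177 in VPA against 5695, 5258 and 5495 in MC, and Efnb1 fell by 0.24 (adjusted p = 0.000764 and 0.00895).

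Among 9 tested Eph receptors, 1 rose and 4 fell. Ephb3, which binds B-type ephrins and takes part in forming the corpus callosum, read 658, 743 and 647 with VPA, against 230, 303 and 333 with MC, and the log2 change was 1.26 [0.95, 1.56] (adjusted p = 1.83e-05). Means were 683 ± 52.3 with VPA and 289 ± 52.7 with MC (SD, n = 3 each), and every VPA array lay well above the MC arrays. Epha5, a receptor for Efna5, read 2370, 2161 and 2673 with VPA, against 3839, 4480 and 3993 with MC (-0.78 [-0.95, -0.60], adjusted p = 9.91e-06). Its other probe sets gave log2 changes of -0.66, which passed the test, and -0.23 and -0.13, which did not. Ephb6, a receptor without kinase activity, read 258, 308 and 269 with VPA, against 397, 490 and 521 with MC (-0.75 [-1.02, -0.48], adjusted p = 0.000309). Epha3, a receptor of A-type ephrins, fell by 0.45 (2773, 2843 and 2934 with VPA, against 3739, 3815 and 4116 with MC, adjusted p = 0.000275) and Ephb1 by 0.19 (adjusted p = 0.0215). Epha7 (0.09 [-0.27, 0.45]) and Epha4 (-0.21 [-0.40, -0.02]) did not pass, with adjusted p of 0.662 and 0.064.

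Class 3 semaphorins are secreted, and 2 of the 3 tested fell. Sema3c, an attractant for callosal axons, read 1183, 1036 and 911 with VPA, against 1533, 1983 and 1522 with MC (-0.68 [-0.96, -0.41], adjusted p = 0.000665). Sema3a, the repellent bound by Nrp1, read 638, 671 and 531 with VPA, against 818, 862 and 868 with MC (-0.48 [-0.67, -0.28], adjusted p = 0.000781). For both, every VPA array lay below every MC array, while Sema3f had a change of 0.35 with an adjusted p of 0.0754. Of the 13 membrane semaphorins, 1 rose and 4 fell. Sema6c rose by 0.50 [0.32, 0.69], with 1456, 1469 and 1358 in VPA against 1110, 1017 and 901 in MC (adjusted p = 0.0004). Sema4c, a ligand of the B-type plexins, read 990, 904 and 1112 with VPA, against 1496, 1669 and 1747 with MC (-0.71 [-0.90, -0.52], adjusted p = 3.99e-05), and Sema6d read 2526, 2786 and 2720, against 3823, 4400 and 3875 (-0.59 [-0.74, -0.44], adjusted p = 2.53e-05). Sema5a and Sema5b fell by 0.34 and 0.26 (adjusted p = 0.0225 and 0.0487), and the arrays of the 2 groups overlapped for Sema5b.

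Of the 11 plexins and neuropilins, the receptors of the semaphorins, 1 rose and 4 fell. Nrp1 read 1282, 1176 and 1320 in VPA telencephalon, against 2237, 3372 and 2590 in MC, and the log2 change was -1.10 [-1.38, -0.82] (adjusted p = 2.53e-05). Means were 1259 ± 74.6 with VPA and 2733 ± 580 with MC (SD, n = 3 each), and the highest VPA array lay under the lowest MC array. Of its other probe sets, 2 fell by 1.13 and 1.09, and 1 gave -0.31 without passing. The signals of Nrp2, the other neuropilin, did not pass the test (0.09 [-0.21, 0.40], adjusted p = 0.6). Among plexins, Plxna4 fell by 0.59 [-0.82, -0.36] (579, 560 and 541 with VPA, against 924, 900 and 716 with MC, adjusted p = 0.000574) and Plxna2 by 0.52 [-0.70, -0.35] (2691, 2989 and 2767, against 3734, 4519 and 3898, adjusted p = 0.0002). Plxnb1, a receptor of class 4 semaphorins, fell by 0.54 (adjusted p = 0.00235). Plxna1, a further partner of the neuropilins, went the other way with 1872, 1810 and 1839, against 1317, 1354 and 1471 (0.42 [0.25, 0.59], adjusted p = 0.000803).

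In the netrin group 2 genes rose and 4 fell of 9 tested. Unc5b, a repulsive netrin receptor known from vessels and axons, read 596, 635 and 556 with VPA, against 383, 346 and 348 with MC (0.73 [0.43, 1.03], adjusted p = 0.000892). Unc5a rose by 0.39 (adjusted p = 0.0329), and this call was lost without the filter (adjusted p = 0.135) and in 4 of the fits that left out an array. Ntn4, a netrin of basement membranes, fell by 0.64 [-0.94, -0.34], with 278, 229 and 270 in VPA against 400, 381 and 425 in MC (adjusted p = 0.00213). Ntn3 and Unc5c fell by 0.82 and 0.51 (adjusted p = 0.0068 and 0.0321) at signals under 260, with overlapping arrays for Unc5c. Dcc, the attractive netrin receptor, fell by 0.21, with 2886, 2940 and 2792 in VPA against 3460, 3548 and 3016 in MC (adjusted p = 0.0206). Ntn1, its ligand, varied too widely between arrays to be judged: 846, 443 and 856 with VPA, against 688, 217 and 374 with MC (adjusted p = 0.131). Slit1 (0.27), Slit2 (0.24), Robo1 (0.01) and Robo4 (-0.30) did not pass, with adjusted p between 0.084 and 0.934.

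**Figure D2:**
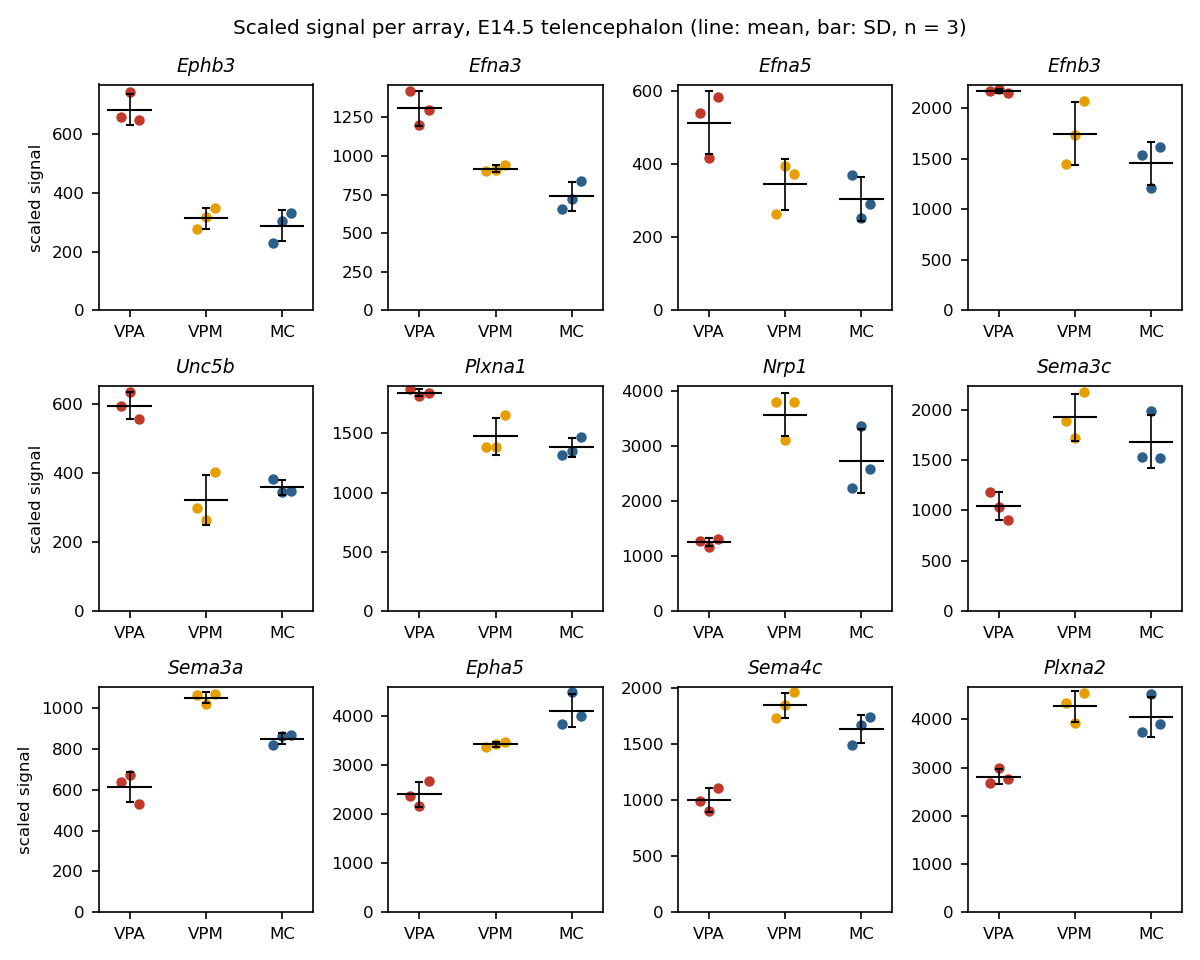
Scaled signal per array of 12 members in E14.5 telencephalon, in VPA, VPM and MC groups, with the mean as a line and the SD as a bar (n = 3 each). Ephb3, Efna3, Efna5, Efnb3, Unc5b and Plxna1 lie higher with VPA than with MC, and Nrp1, Sema3c, Sema3a, Epha5, Sema4c and Plxna2 lower, without overlap.

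Of the intracellular effectors and co-receptors of guidance signalling, a list of 48 genes, 44 were tested: 12 rose and 11 fell with VPA. Farp2, an exchange factor bound to plexins, rose by 1.55 (259 ± 21.6 with VPA and 88.7 ± 9.30 with MC, adjusted p = 2.1e-05), the actin regulator Vasp by 0.66 and the repulsive guidance molecule gene Rgmb by 0.45. Mical1, an actin-oxidising enzyme downstream of plexins, fell by 0.88 (248 ± 57.3 with VPA and 448 ± 40.2 with MC), Rgs3, which links B-type ephrins to G proteins, by 0.52 and Cdk5r1, the activator of the kinase Cdk5, by 0.25. Cell type markers moved in the same arrays. Of 6 progenitor markers 3 fell, and the list summed to 28924 to 29738 with VPA, against 32583 to 33350 with MC. Of 6 neuron markers 3 fell and 1 rose, with sums of 46680 to 46856 against 50195 to 50485. Of 4 tested markers of cortical layers 3 fell and 1 rose (3167 to 3349 against 6143 to 6588), Tbr1 by 1.38 and Fezf2 by 1.23. Of 7 endothelial markers 3 fell (1666 to 1818 against 2265 to 2477), and 3 of 5 markers of meninges and pericytes fell (577 to 649 against 744 to 874), with Col1a1 and Lum at or under the floor in VPA and MC groups. All 3 telencephalic markers fell (6882 to 7611 with VPA, against 8960 to 9827 with MC), as did 2 of 3 hippocampal markers (4464 to 4919 against 7352 to 7850) and 2 of 4 erythroid markers (6517 to 9933 against 10892 to 12851). Of 5 striatal markers 1 rose and 1 fell, with sums of 1389 to 1499 against 989 to 1152. Their part in the changes of the guidance genes was not tested. With inferred sex as a covariate, chosen after seeing the data, 29 members changed.

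VPM, given at the same dose by weight and on the same days, changed 7 of 58 of these genes at E14.5, 3 upward and 4 downward. With the values as deposited 1 changed, downward, and with no filter on low signals 2 did, 1 upward and 1 downward. That is 12.1% of the members tested, against 11.6% of all genes (5.65% higher and 5.91% lower), and 19 members had an unadjusted p under 0.05. Ephb1, a receptor of B-type ephrins that sorts uncrossed retinal axons, read 1868, 1790 and 1997 in VPM telencephalon, against 1403, 1394 and 1485 in MC (0.40 [0.27, 0.54], limma adjusted p = 0.00288). Efnb1 read 1989, 2112 and 2010 with VPM, against 2626, 2714 and 2547 with MC (-0.37 [-0.51, -0.22], adjusted p = 0.00622). For both genes every VPM array lay outside the range of the MC arrays, as it did for 13 members and 32.8% of all genes. Sema6d, Dcc and Epha3 fell by 0.31, 0.29 and 0.28 (adjusted p = 0.0146, 0.0216 and 0.0268), and Sema3a and Sema4g rose by 0.31 and 0.29 (adjusted p = 0.0457 and 0.0472). The other tested probe sets of these 7 genes, 9 in all, had the same sign, and 2 passed in a fit over all probe sets.

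The count of calls with VPM moved when single arrays were left out. Sema3a and Sema4g were lost in every fit that left out a VPM or MC array, and 4 members were called without VPM replicate 1, without VPM replicate 3 or without MC replicate 2, of which 4, 3 and 2 were among the 7. VPM replicate 3 is the array with high choroid plexus markers. Nrp1 read 3803, 3121 and 3796 with VPM, against 2237, 3372 and 2590 with MC (0.40 [0.12, 0.68], adjusted p = 0.0646). Of the guidance effectors, 6 of 44 rose with VPM and 0 fell, among them the exchange factor Trio (0.37), the adhesion molecule L1cam (0.33) and Ablim1 (0.56). In these arrays 4 of 6 progenitor markers fell (25971 to 27768 with VPM, against 32583 to 33350 with MC) and 3 of 6 neuron markers rose (56979 to 60550 against 50195 to 50485). All 3 telencephalic markers fell (6739 to 7954 with VPM, against 8960 to 9827 with MC). Of 4 erythroid markers 1 rose and 2 fell, with sums of 2538 to 3161 against 10892 to 12851, and both tested oligodendrocyte markers rose (954 to 1194 against 495 to 713). What these markers contribute to the changes was not tested.

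VPA and VPM differ by an acid against an amide group, and they were compared with each other at 1 matched dose in each of 3 embryonic sets. At E14.5, 30 of 58 members differed, 12 higher and 18 lower with VPA, which is 51.7% against 54.5% of all genes (27.5% higher and 27% lower). The comparisons of VPA and of VPM with MC share the MC arrays. Nrp1 was lower with VPA (1282, 1176 and 1320) than with VPM (3803, 3121 and 3796), with a log2 difference of -1.50 [-1.78, -1.22] (adjusted p = 2.28e-06). Ephb3 was higher with VPA by 1.13 [0.82, 1.43] (658, 743 and 647, against 276, 317 and 348 with VPM, adjusted p = 3.91e-05), and Unc5b by 0.91 [0.60, 1.21] (596, 635 and 556, against 298, 266 and 405, adjusted p = 0.000181). In all of them the arrays did not overlap, as in 29 members and 60.7% of all genes. Sema3a and Ephb1, which rose with VPM and fell with VPA against MC, differed by -0.78 [-0.97, -0.59] and -0.59 [-0.73, -0.46] (adjusted p = 1.94e-05 and 1.04e-05).

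Slit2, the midline repellent, passed no test against MC with VPA but differed between the compounds: 875, 874 and 945 with VPA, against 549, 552 and 726 with VPM (0.57 [0.33, 0.81], adjusted p = 0.000873). Ephb4, best known from vessels, was likewise higher with VPA than with VPM by 0.54 (239, 250 and 214, against 172, 144 and 167, adjusted p = 0.00791). Sema4c, Sema3c, Ephb6 and Unc5c were lower with VPA than with VPM by log2 changes of -0.89, -0.89, -0.86 and -0.91. Of the 30 members that changed with VPA against MC, 25 differed in the same direction from VPM. Both comparisons use the same VPA arrays, so part of this overlap is built in, and the share over all genes is not given here. The other 5 were Efnb1, Dcc, Epha3, Sema5a and Sema5b, with differences between VPA and VPM of 0.12 [-0.02, 0.27], 0.07 [-0.08, 0.22], -0.17 [-0.32, -0.01], -0.07 [-0.31, 0.17] and -0.04 [-0.26, 0.19]. Efnb1, Dcc and Epha3 fell with each compound against MC. Of the guidance effectors 7 were higher and 20 lower with VPA than with VPM, Ablim1 among them at 665 ± 33.8 with VPA and 1355 ± 218 with VPM.

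At E18.5, 4 days after the last dose, the hippocampus gave no call. In limma 0 of 64 members changed with VPA against MC, 0 with VPM against MC and 0 between VPA and VPM, with 12, 9 and 7 members at an unadjusted p under 0.05. Of all 11540 genes, 0%, 0.00867% and 0% changed. The smallest adjusted p with VPA was that of Sema7a, a lipid-anchored semaphorin that promotes axon growth: 1431, 1369 and 1596 with VPA, against 852, 1266 and 1077 with MC (0.48, adjusted p = 0.213). Sema5b followed with 239, 153 and 181 against 342, 246 and 308 (-0.65, adjusted p = 0.228) and Ephb1 with -0.18 (adjusted p = 0.243). With VPM the first was Slit2 with 856, 794 and 719 against 1234, 897 and 1295 in MC (-0.52, adjusted p = 0.37). Between the compounds Sema5b (-0.54) and Sema5a (0.29) came first, each with an adjusted p of 0.23. Nrp1 had a change of -0.33 [-0.58, -0.08] with VPA (7783, 8744 and 7486 against 12498, 8737 and 9310, adjusted p = 0.282), and Ephb3 one of -0.25 [-0.56, 0.06].

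In the E18.5 forebrain VPA changed 2 of 60 members, both netrin receptor genes. With the values as deposited 0 changed, and with no filter on low signals, with the replicate number as a block or with inferred sex as a covariate (chosen after seeing the data) only Dcc did. Dcc read 1856, 1912 and 1840 in VPA forebrain, against 2248, 2318 and 2179 in MC, a fall of 0.27 on the log2 scale (-0.27 [-0.37, -0.17], limma adjusted p = 0.0145). Unc5c, which with Dcc mediates repulsion, read 824, 879 and 821 with VPA, against 653, 703 and 684 with MC (0.31 [0.16, 0.45], adjusted p = 0.0371). For both, all VPA arrays lay outside the range of the MC arrays, as they did for 12 members and 22.3% of all genes. The other tested probe sets of Dcc and Unc5c, 3 in all, had the same sign, but 0 passed in a fit over all probe sets. The 2 genes are 3.33% of those tested, beside 2.16% of all 11507 genes (1.09% higher and 1.06% lower), 9 members had an unadjusted p under 0.05, and leaving out any 1 array of these groups left 0 or 1 member called. Nrp2 followed with 1934, 1807 and 1759 against 2195, 2047 and 2125 (-0.21, adjusted p = 0.0543).

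In the same forebrain arrays 4 of 5 tested choroid plexus markers fell, with sums of 535 to 4884 with VPA, against 17760 to 25375 with MC, and 3 of 6 progenitor markers fell (12359 to 13711 with VPA, against 14736 to 16041 with MC). The 1 tested erythroid marker fell (216 to 255 against 410 to 578), while 1 of 3 oligodendrocyte markers (5102 to 5410 against 3711 to 4216) and 1 of 4 astrocyte markers (3255 to 3613 against 2680 to 3076) rose. Striatal markers summed to 2678 to 2990 with VPA, against 2266 to 2539 with MC, and none passed the test. Their part in the changes of Dcc and Unc5c was not tested. Of the guidance effectors 1 fell, the actin regulator Enah (4402 ± 196 with VPA and 5337 ± 150 with MC), and 1 rose, Ablim1 (2699 ± 41.7 and 2320 ± 132). VPM against MC changed 0 of 60 members in limma, with 2 at an unadjusted p under 0.05 and 0% of all genes. Nrp2 (-0.18, adjusted p = 0.79) had the smallest p. Between VPA and VPM, Unc5c differed, with 824, 879 and 821 against 711, 636 and 647 (0.34, adjusted p = 0.0497), 1 member beside 0.53% of all genes (groups without overlap for 8 members and 17.1% of all genes). That call was lost in every fit that left out an array and under 6 of the other settings. The 1 other tested probe set of Unc5c had the same sign and did not pass. Nrp1 and Ephb3 differed between the compounds by -0.10 [-0.33, 0.14] and -0.12 [-0.52, 0.27].

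The VPA effect itself was compared between the E18.5 forebrain and the E14.5 telencephalon in 1 model. It differed for 26 of 63 members, 13 toward higher and 13 toward lower values at E18.5, which is 41.3% against 39.1% of all genes (18.7% and 20.4%). With the values as deposited it differed for 7 members, 4 toward higher and 3 toward lower values. Age, dissected tissue and time since the last dose cannot be told apart in this difference. Epha5 had a log2 change of 0.04 at E18.5 and of -0.78 at E14.5, a difference of 0.82 with a limma adjusted p of 1.07e-05. Ephb6 had 0.37 and -0.75 (difference 1.12, adjusted p = 3.56e-05), Sema4c 0.00 and -0.71, Sema6c -0.04 and 0.50, Unc5b -0.23 and 0.73, and Nrp1 -0.19 and -1.10. Ephb3, with the largest rise at E14.5, read 242, 281 and 213 with VPA at E18.5, against 247, 238 and 191 with MC (0.12 [-0.27, 0.51]), a difference of -1.13.

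All 30 members that changed at E14.5 were tested in the E18.5 forebrain. They were picked by their change at E14.5, so a smaller one elsewhere follows in part from that choice, and the same was counted for all genes that changed at E14.5. The median size of the members' change was 0.091 at E18.5 and 0.57 at E14.5, beside 0.081 and 0.48 over the 5837 such genes tested in both. The difference between the ages passed the test for 70% of these members and 71.1% of these genes, and the sign was the same at both ages for 63.3% and 59.2%. Unc5c fell at E14.5 and rose at E18.5, with changes of 0.31 at E18.5 and -0.51 at E14.5 and a difference of 0.81 that passed the test. Between the 2 regions at E18.5 the VPA effect differed for 0 of 65 members in limma, with 8 at an unadjusted p under 0.05 and 0% of all genes called.

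**Figure D3:**
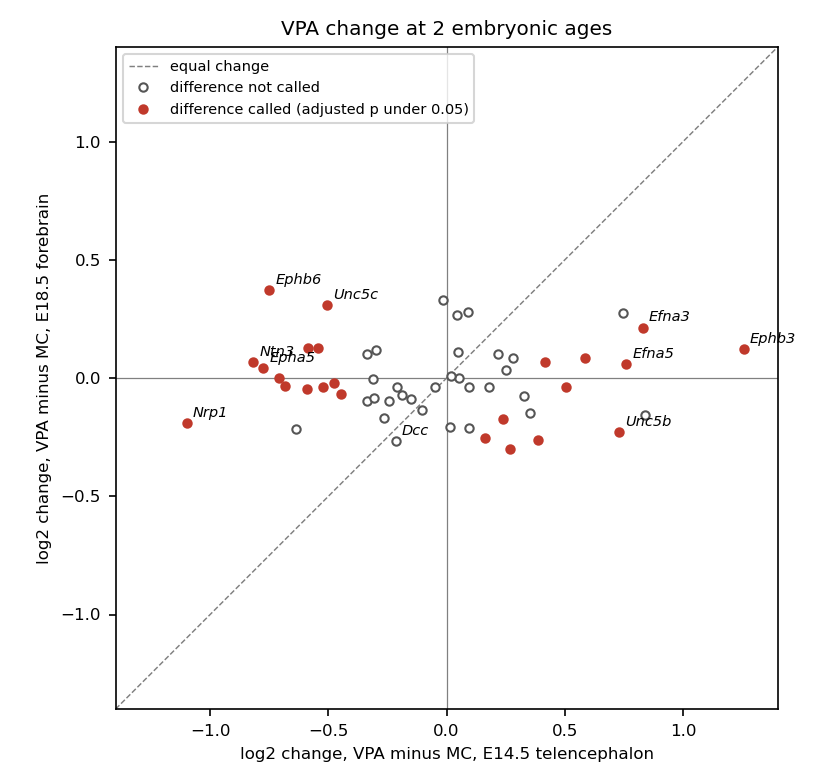
Log2 change with VPA against MC of each member in E14.5 telencephalon (horizontal axis) and in E18.5 forebrain (vertical axis), with red points where the difference between both had an adjusted p under 0.05. Nrp1 lies at -1.10 and Ephb3 at 1.26 on the horizontal axis, and the members picked by their change at E14.5 have a median size of 0.091 on the vertical one.

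In adult offspring no member changed. Prenatal VPA against MC gave 0 of 65 in hippocampus, 0 of 65 in cortex and 0 of 63 in the P84 hippocampus in limma, with 5, 6 and 3 members at an unadjusted p under 0.05 and 0%, 0.00735% and 0% of all genes called. The median size of the change was 0.09 in hippocampus, 0.08 in cortex and 0.08 at P84, against 0.10, 0.10 and 0.06 over all genes. Sema4d had the smallest adjusted p in hippocampus (920, 849 and 837 in VPA offspring, against 989, 1052 and 952 in MC offspring, -0.20, adjusted p = 0.389), followed by Efna5 (450, 388 and 361 against 469, 488 and 474, -0.26, adjusted p = 0.406) and Sema3f (adjusted p = 0.426). In cortex it was Sema5b (308, 295 and 313 against 359, 371 and 400, -0.30, adjusted p = 0.33). At P84 it was Sema5a with 862, 727, 782 and 828 in VPA offspring, against 925, 971, 954 and 966 in MC offspring (-0.26, adjusted p = 0.76). The VPA arrays lay below all MC arrays for Sema5b in cortex and Sema5a at P84, without passing the test. Groups did not overlap for 6 members in hippocampus, 8 in cortex and 1 at P84, against 16.9%, 15.7% and 2.98% of all genes.

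Nrp1, which fell at E14.5, read 3284, 3631, 3444 and 3345 in P84 VPA hippocampus, against 3081, 3209, 3691 and 3581 in MC, a change of 0.02 [-0.12, 0.15]. Ephb3 read 192, 229, 203 and 289 in VPA offspring at P84, against 372, 273, 302 and 264 (-0.41 [-0.74, -0.08], adjusted p = 0.902). In adult cortex the changes of Nrp1 and Ephb3 with prenatal VPA were -0.26 [-0.52, 0.00] and -0.04 [-0.36, 0.28]. The VPA effect at P84 and in the other adult hippocampus set differed for 0 of 65 members in limma, with 3 at an unadjusted p under 0.05 and 0% of all genes.

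Running after weaning changed 0 of 65 members in each adult tissue and prenatal group in limma. In hippocampus 6 members had an unadjusted p under 0.05 in MC offspring and 5 in VPA offspring, with 0% of all genes called in each. In cortex there were 6 and 3, with 0.0147% and 0% of all genes. The smallest adjusted p in MC+RW against MC was that of Plxnb1 in cortex (737, 767 and 679, against 934, 831 and 1006, -0.34, adjusted p = 0.204) and of Ntn5 in hippocampus (286, 164 and 202, against 300, 413 and 349, -0.73, adjusted p = 0.308). In VPA+RW against VPA it was that of Nrp1 in cortex (1258, 1421 and 1428, against 1117, 1003 and 999, 0.40, adjusted p = 0.583) and of Sema3f in hippocampus, whose arrays scattered (111, 131 and 125, against 151, 957 and 563). The running effect did not differ between VPA and MC offspring for any of 65 members in hippocampus or cortex in limma, with 6 and 3 members at an unadjusted p under 0.05 and 0% of all genes called in each.

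Vehicle animals give the levels of these genes over brain development. From E14.5 telencephalon to E18.5 forebrain 41 of 63 members changed, 25 upward and 16 downward (65.1%, against 66.4% of all genes, 34.7% higher and 31.7% lower). From E18.5 forebrain to adult cortex 59 of 67 changed, 26 upward and 33 downward (88.1%, against 82%, 45.5% higher and 36.5% lower), and from E18.5 to P84 hippocampus 58 of 68, 23 upward and 35 downward (85.3%, against 84%, 45.3% higher and 38.7% lower). The tissues differ for the first pair and the second, and whether the ages were processed together is not stated in the labels, so age and any array batch cannot be told apart. The median over all genes was 0.14 for adult cortex against E18.5 forebrain and 0.11 for P84 against E18.5 hippocampus. It was -0.07 and -0.09 after quantile normalization, and 0.23 and 0.48 with the values as deposited. With the values as deposited 37 members were higher and 2 lower at E18.5 than at E14.5, 25 and 24 in adult cortex against E18.5 forebrain, and 29 and 22 at P84 against E18.5 hippocampus, so the split by direction depends on the scaling.

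Several receptors and ligands were far lower in the adult than in the embryo. Epha3 read 3739, 3815 and 4116 at E14.5, 1880, 2006 and 1904 in E18.5 forebrain and 200, 194 and 196 in adult cortex. It was lower by log2 changes of -1.01 [-1.17, -0.85] at E18.5 against E14.5 and -3.29 [-3.50, -3.09] in adult cortex against E18.5 (adjusted p = 2.23e-09 and 3.5e-17). Nrp2 read 1812, 1530 and 1786, then 2195, 2047 and 2125, then 331, 317 and 239 (adult cortex against E18.5 forebrain -2.86 [-3.09, -2.62]). Efnb2 read 5695, 5258 and 5495, then 4151, 3979 and 3448, then 821, 1012 and 709 (-2.20 [-2.48, -1.92]). Both genes were at their lowest in the adult. Plxnb2, a receptor on migrating precursors, had log2 changes of -2.40 in cortex and -2.42 in hippocampus, and Sema4c, its ligand, -2.04 and -2.54. Dcc had changes of -2.07 and -2.06 with its brightest probe set, whereas its other probe set had 1.26 and 0.65, so the direction for Dcc depends on the probe set. The same holds for Epha5, whose brightest probe set had -1.82 and -1.96 while others rose (0.22 in cortex, 0.55 and 0.53 in hippocampus). Members that changed had 62 other probe sets in the cortex comparison, 50 of the same sign and 8 called in the opposite direction. In the hippocampus comparison they had 63, with 55 of the same sign and 5 called in the opposite direction.

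Other members were higher in the adult brain than in the embryo. Sema3e, the ligand of Plxnd1, read 68.0, 35.9 and 65.3 at E14.5, 229, 287 and 221 in E18.5 forebrain and 871, 990 and 789 in adult cortex, with log2 changes of 2.17 [1.62, 2.72] and 1.85 [1.52, 2.18]. Each age lay above the one before without overlap. Epha6 read 59.8, 46.5 and 41.6, then 169, 138 and 125, then 348, 308 and 422 (adult cortex against E18.5 forebrain 1.32 [0.95, 1.69]). Unc5c read 254, 168 and 222, then 653, 703 and 684, then 811, 860 and 1037. Ntng1, a membrane-bound netrin of synapses, rose by 1.75 and 1.25, and adult cortex was also higher than E18.5 forebrain in Sema6b (1.25) and Plxnb3 (1.66), a plexin of oligodendrocytes. Efna5 had 370, 252 and 291 at E14.5, 461, 526 and 628 in E18.5 forebrain and 1033, 1249 and 1155 in adult cortex. Ntn5 stood under the floor of 32 in all embryonic arrays of MC telencephalon and forebrain and at 257, 209 and 391 in adult MC cortex, at least 8.62-fold higher. Epha8 showed a single peak, with 54.8, 39.9 and 26.0 at E14.5, 265, 221 and 199 in E18.5 forebrain and 63.2, 46.1 and 55.2 in adult cortex.

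Maturation in the hippocampus was set beside that from E18.5 forebrain to adult cortex. Of 66 members tested in both maturation comparisons, 49 were called in both: 16 higher in both, 28 lower in both and 5 in opposite directions (Ntn3, Ntn4, Plxna4, Sema5a and Unc5d). Calls in the same direction were 75.9% of those in the forebrain and cortex and 78.6% of those in hippocampus, against 88.7% and 86.7% over all genes. Slit1 read 2332, 2745, 2677 and 2593 at P84, against 380, 400 and 422 in E18.5 hippocampus, a rise of 2.69 [2.47, 2.91]. In cortex its change did not pass (0.18 [-0.26, 0.61], adjusted p = 0.436), and the difference between the tissues was not tested. Sema3c read 740, 798, 640 and 596 at P84, against 6303, 5544 and 5191 (-3.04 [-3.29, -2.79]), and Sema3a 170, 178, 158 and 131, against 552, 702 and 810 (-2.10 [-2.41, -1.79]). Epha10, a receptor without kinase activity, read 386, 317, 252 and 333 at P84 and stood under the floor in all 3 E18.5 arrays, at least 9.95-fold higher.

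By role, the netrin group and the slits and Robos had more rises than falls in both maturation comparisons, as all genes did. Of all genes 6349 rose and 5086 fell of 13945 in cortex, and 6228 rose and 5325 fell of 13759 in hippocampus. The counts by role are small and use the brightest probe set, and the split of the members by direction depends on the scaling. In the netrin group 8 rose and 3 fell of 11 in adult cortex against E18.5 forebrain, and 7 rose and 5 fell of 12 at P84 against E18.5 hippocampus. Unc5cl, placed in this group by its symbol, was among the rises in both. Among slits and Robos 3 rose and 1 fell of 6 in cortex, and 2 rose and 1 fell of 5 in hippocampus. Of 11 plexins and neuropilins 2 rose and 9 fell in cortex, and 2 rose and 8 fell in hippocampus. Of 8 ephrins 1 rose and 5 fell in cortex, and 1 rose and 4 fell in hippocampus. Eph receptors split 5 up and 6 down of 11 in cortex, and 3 up and 6 down of 12 in hippocampus. The effectors of guidance signalling fell in 32 of 45 and rose in 9 in cortex, and fell in 33 and rose in 10 of 45 at P84. Dpysl5 and Dpysl3, relatives of the semaphorin mediator Crmp1, had log2 changes of -4.16 and -3.90 in cortex and Crmp1 itself -2.52, while Chn1, an effector of Eph receptor signalling, had 2.21. Markers moved as well: all 6 progenitor markers fell in all 3 age comparisons, and 3 of 3, 4 of 5 and 4 of 5 oligodendrocyte markers rose, in the order E18.5 forebrain against E14.5, adult cortex against E18.5 forebrain and P84 against E18.5 hippocampus. Their part in the changes of the members was not tested.

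**Figure D4:**
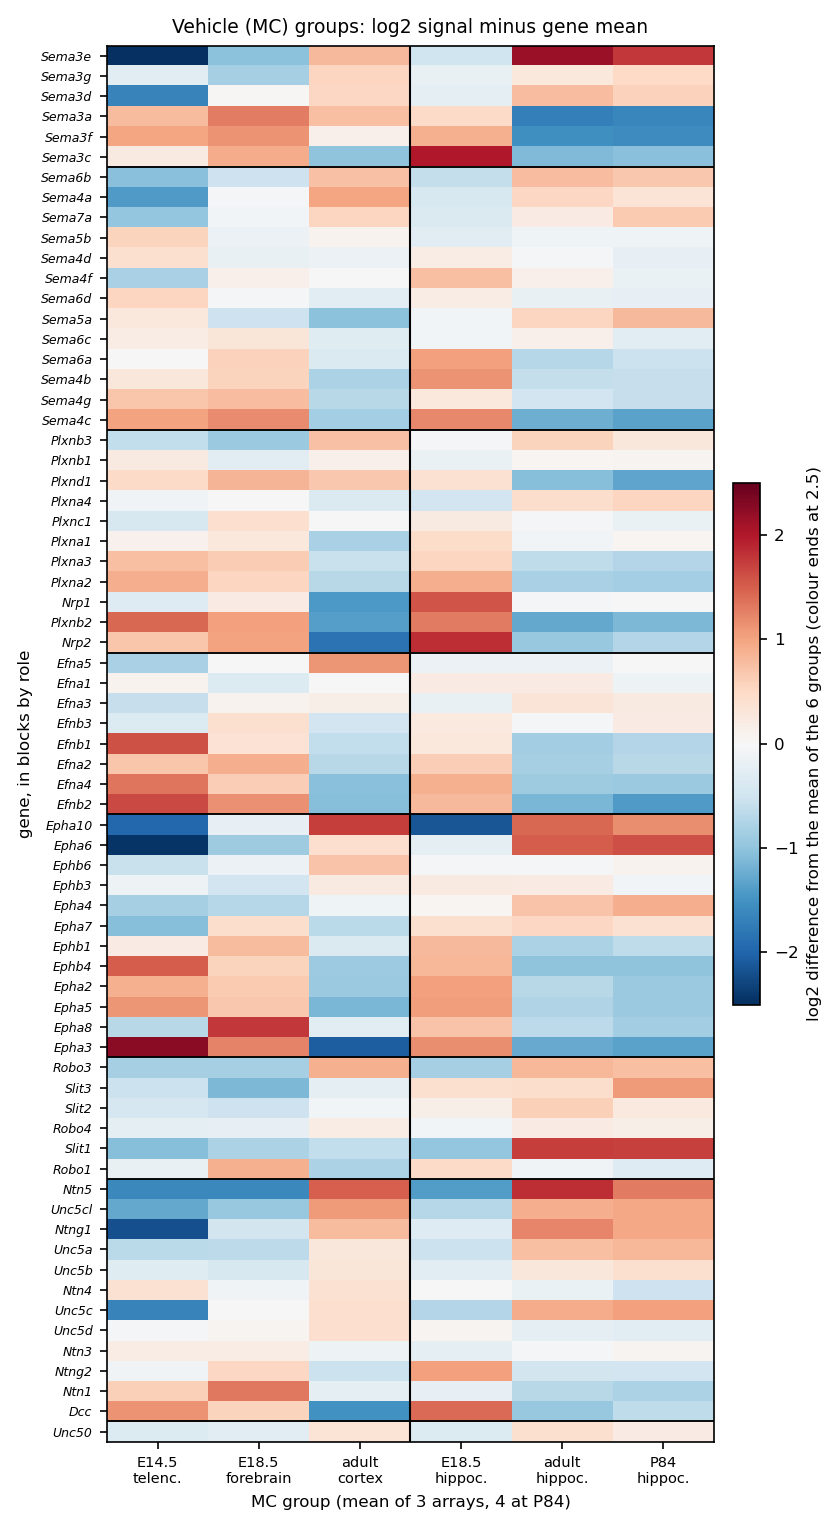
Heat map of 69 members in the 6 MC groups, as log2 signal minus the gene's mean over these groups; the first 3 columns are E14.5 telencephalon, E18.5 forebrain and adult cortex, the next 3 are E18.5, adult and P84 hippocampus. Epha3, Nrp2, Efnb2 and Plxnb2 are high in the embryo, and Sema3e, Epha6, Ntn5 and Unc5c in the adult.

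At E18.5, 31 of 65 members differed between MC hippocampus and MC forebrain, 19 higher and 12 lower in hippocampus (47.7%, against 30% of all genes, 14.9% higher and 15.1% lower). In adults, 28 of 65 differed between MC hippocampus and MC cortex, 19 higher and 9 lower (43.1%, against 18.6% of all genes, 8.84% higher and 9.74% lower). With the values as deposited, 11 differed at E18.5 (4 higher and 7 lower) and 21 in adults (14 and 7). E18.5 forebrain and adult cortex are not the same tissue.

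Nrp1 was higher in hippocampus at both ages. It read 12498, 8737 and 9310 in E18.5 hippocampus, against 3241, 4678 and 3916 in forebrain (1.37 [1.11, 1.62], adjusted p = 6.34e-07), and 3234, 3018 and 3562 in adult hippocampus, against 1097, 1360 and 1285 in cortex (1.39 [1.18, 1.61], adjusted p = 4.91e-10). Nrp2 was higher by 0.85 at E18.5 and 0.90 in adults, and Epha4 by 0.76 and 0.82. Sema3a, the ligand of Nrp1, ran the other way: 552, 702 and 810 in E18.5 hippocampus, against 1178, 1118 and 1278 in forebrain (-0.81 [-1.06, -0.56]), and 127, 184 and 144 in adult hippocampus, against 870, 805 and 808 in cortex (-2.46 [-2.78, -2.15], adjusted p = 3.39e-11). Plxnd1, the receptor of Sema3e, was lower by 0.47 and 1.74.

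Further members differed at 1 age or more. At E18.5 Sema3c was higher in hippocampus by 1.07 (6303, 5544 and 5191, against 2538, 3075 and 2525) and Dcc by 0.86, while Ntn1 was lower, with 238, 185 and 245 against 725, 479 and 720 (-1.51 [-2.04, -0.99], adjusted p = 0.000244). Epha10 stood under the floor in E18.5 hippocampus and at 104, 106 and 165 in forebrain, at least 3.82-fold lower. In adults Slit1 was higher in hippocampus, with 3470, 1853 and 2761 against 681, 668 and 302 in cortex (2.34 [1.83, 2.85], adjusted p = 1.44e-07), and Sema3e with 2613, 1944 and 2142 against 871, 990 and 789 (1.33 [1.15, 1.52]). Sema5a was higher by 1.56, while Efna5 was lower, with 469, 488 and 474 against 1033, 1249 and 1155 (-1.26 [-1.45, -1.07], adjusted p = 3.11e-10). No test compared the regional differences between the ages.

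Of 61 members tested at both ages, 15 differed between the regions at both, 7 higher in hippocampus (Dcc, Epha4, Epha6, Nrp1, Nrp2, Sema5a and Slit2), 3 lower (Plxnd1, Sema3a and Sema4a) and 5 in opposite directions (Plxna4, Robo1, Sema6a, Sema6c and Unc5c). For Robo1 in adults the mean over its probe sets gave -0.023 in place of 0.71. The 10 with the same direction are 33.3% of those called at E18.5 and 35.7% of those called in adults, against 22.8% and 33.2% over all genes. Unc5c was lower in hippocampus at E18.5 (-0.75 [-0.95, -0.55]) and higher in the adult (0.50 [0.33, 0.67]). Regional markers moved with these differences: striatal markers were lower in hippocampus in 4 of 5 at E18.5 and 5 of 5 in adults, with sums of 2469 to 2649 in adult hippocampus and 13221 to 14619 in cortex, and 6 of 6 interneuron markers were lower at E18.5. Markers of meninges and pericytes were higher in 4 of 7 at E18.5. Their part in the differences of the guidance genes was not tested.

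**Figure D5:**
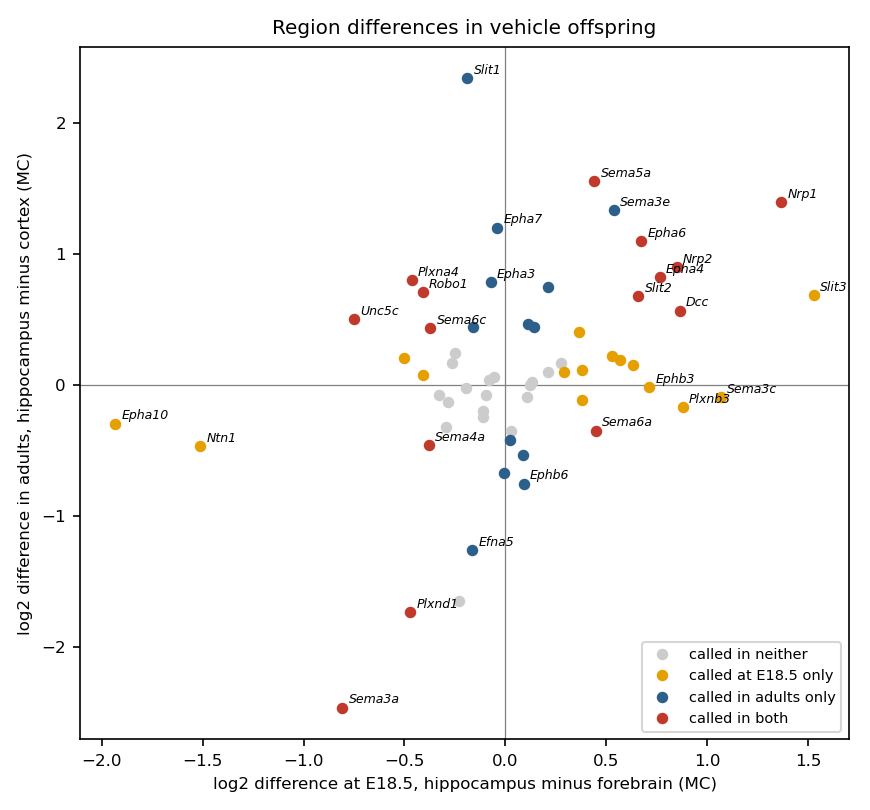
Log2 difference of 61 members between hippocampus and forebrain at E18.5 (horizontal axis) and between hippocampus and cortex in adults (vertical axis), in MC animals, with n = 3 arrays per group; colours mark members with an adjusted p under 0.05 at neither age, at E18.5, in adults or at both. Nrp1 lies to the upper right at 1.37 and 1.39, Slit1 near the top at 2.34, and Sema3a to the lower left at -0.81 and -2.46.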

How the data were processed

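The values are linear signal intensities per probe set of Affymetrix Mouse 430 2.0 arrays, as deposited by the authors. GCOS is named in the submitters' processing notes. The sources used here do not give how a signal was computed or whether arrays were scaled. The trimmed mean (2%) of the deposited arrays ran from 197.6 to 419.4, 18.2% to 38.0% of probe sets lay at the floor after scaling, arrays of a group correlated at 0.972 to 0.994, and 0 pairs were identical. Their number, 3 or 4 per group, limits the precision.

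Arrays were brought to a common 2% trimmed mean, 500, then floored at 32 and put on the log2 scale. Of 45101 probe sets 34958 carried 1 symbol, 932 several and 9211 none; a gene was read by its probe set of highest mean signal. The members had 162 probe sets. Genes at 100 or more in at least 3 arrays (4 at P84) entered limma 3.58.1 (run in R 4.3.3; tables were read by data.table, version 1.17.8) with 1 term per group, variances moderated along the signal level and p-values adjusted by Benjamini and Hochberg's method over all genes tested, with a threshold of 0.05; the procedure was tested on simulated data. Where a group lay under the floor in every array, the fold is against the floor and given as a bound. Promoter windows come from RefSeq (GRCm38.p6), and 62 members matched. Figures used Python 3.11.15, numpy 2.4.6, pandas 2.3.3 and matplotlib 3.10.9.

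The members, the lists and the tests were chosen with earlier results of these data known. Values are given for members that passed with non-overlapping groups and a mean signal of at least 200, by size of change, or for the 3 with the smallest p where fewer than 3 passed; further members of the same role are named beside them. A rule to name the brightest member of a role was not used, because probe sets differ in brightness. The settings varied one at a time were the normalization (quantile, or none with the values as deposited), the floor (log2(signal + 32) in its place), the filter (none, or 200), the probe sets (their mean per gene), the replicate number (as a block) and the arrays (each left out in turn); inferred sex as a covariate was added after seeing the data. Most samples with the same replicate number did not deviate together. Correlations passed 0.1 in 1 of 9 pairs at E14.5, 2 of 9 in E18.5 hippocampus and 3 of 9 in E18.5 forebrain (highest 0.38). They did so in 1 of 18 pairs in adult hippocampus, 4 of 18 in adult cortex and 0 of 4 at P84. As deposited, replicate 3 had the lowest trimmed mean in every E18.5 group, and the reason was not tested. The numbers were not used as pairs in the main fits.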

Additional observations from a re-analysis of the deposited data

Results flagged for a closer look

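The VPA effect differed between E18.5 forebrain and E14.5 telencephalon, by a test of the difference itself, in 26 of the 63 members tested. The 6 with the smallest adjusted p had log2 differences, E18.5 minus E14.5, of 0.82 (Epha5), 1.12 (Ephb6), 0.71 (Sema4c), -0.54 (Sema6c), -0.96 (Unc5b) and 0.91 (Nrp1). With the values as deposited 7 members differed. Age, tissue and time since the last dose cannot be told apart.

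Of 52 tests for a single array far from the others, on members named in the P84 set, 3 were met, and chance gives about 1 in 20. In P84 MC hippocampus Efna4 stood at 167 in replicate 3, Ntng1 at 634 in replicate 2 and Sema7a at 2342 in replicate 1, each apart from the other 3 arrays of its group.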

How the results depend on the processing

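Over all comparisons, counts of members called stayed within 1.5 times the reported count in 177 settings and moved further in 14. For VPM against MC at E14.5 the count was 7, and 1 with the values as deposited and 2 with no filter. For VPA against MC in E18.5 forebrain it was 2, and 0 as deposited and 1 with no filter, with the replicate block and with inferred sex as a covariate. For VPA against VPM there it was 1, and 0 under quantile normalization, as deposited, with log2(signal + 32), with no filter, with the replicate block and with inferred sex. As deposited, 11 members differed between hippocampus and forebrain of E18.5 MC embryos, and 7 in the VPA effect between E18.5 forebrain and E14.5. The cause was not tested. Robo1 in adult MC hippocampus against cortex turned from 0.71 to -0.023 with the mean over its probe sets.

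Leaving out each array in turn gave 25 to 29 members for VPA against MC at E14.5, 4 to 6 for VPM against MC, 25 to 29 for VPA against VPM, 0 to 1 for VPA against MC in E18.5 forebrain (0 without VPA replicate 1, MC replicate 1 or MC replicate 2) and 0 for VPA against VPM there. It gave 0 to 1 for MC+RW against MC in adult cortex: without MC+RW replicate 3, Unc50 was lower (-1.66, limma adjusted p = 0.024). For single named members, 1457 results kept their call and direction under the other settings and 76 lost the call. The replicate block gave 31, 7 and 29 members at E14.5 and changed no count beyond those above by over 1.5 times. Genes near the floor of 32 have compressed changes.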

Other observations

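In 8 of 1016 combinations of a member and a group with a mean signal of at least 200, the highest array exceeded the lowest 3-fold or more, and Sema3f accounted for 4 of them. Its brightest probe set read 1189, 1364 and 90 in adult MC cortex, a 15.2-fold spread, whereas its other probe sets read 43, 37 and 19, and 71, 81 and 94, in the same arrays. In adult cortex of MC+RW offspring the brightest one read 1822, 1854 and 908. Unc50, the Golgi gene that shares only the symbol, read 730, 902 and 2604 in adult cortex of MC+RW offspring, against 2517, 2612 and 2555 in MC offspring, while one of its other probe sets read 1396, 1385 and 1383 in the MC+RW arrays. Ephb3 varied 4.19-fold between the arrays of adult VPA+RW hippocampus, and Ntn1 3.10-fold between the VPM arrays and 3.17-fold between the MC arrays at E14.5.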
